A study of Homo sapiens with 6 samples.

Results

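The U2 snRNP protein genes encode proteins of the U2 small nuclear ribonucleoprotein, a core part of the spliceosome. The 10 genes were chosen by name as SF3A1, SF3A2, SF3A3, SF3B1, SF3B2, SF3B3, SF3B4, SF3B5, SNRPA1 and SNRPB2. Each was found in 1 of the 62828 loci of the deposited table. All 10 averaged 1 FPKM or more across the libraries, the minimum that 12838 loci in all, 10287 of them protein-coding, met and that defines the loci analysed. FPKM, fragments per kilobase of transcript scaled to library size, is a level per length.

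RNA came from K562, an established line of human chronic myelogenous leukemia cells, after transfection with siRNA against HNRNPU at 300 nM or with control oligos. Each condition has 1 library from the whole cell and 1 from each fraction, so that 6 groups hold 1 library each: knockdown whole-cell, knockdown nuclear, knockdown cytosolic, control whole-cell, control nuclear and control cytosolic. No group has a replicate library, so no difference below has a replicate check and none was tested. Whether the 3 preparations of a condition shared a culture is not stated. Knockdown of a transfected population leaves some HNRNPU RNA.

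U2 snRNP recognizes the branch point of an intron and is recruited there before the catalytic spliceosome forms. Its protein part consists of the Sm ring shared with other snRNPs, the SF3a and SF3b complexes, and SNRPA1 and SNRPB2, a pair of proteins that sits on a stem-loop of the U2 snRNA. HNRNPU, an abundant nuclear protein that binds RNA and chromatin, is known to act in the maturation of U2 snRNP. The question for these genes is whether their RNA levels or their nuclear share differ when HNRNPU is low.

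The targeted gene was lower in each knockdown library. The HNRNPU locus, merged with HNRNPU-AS1, had 43.0% of its control FPKM left in whole-cell RNA, 39.0% in nuclear RNA and 22.1% in cytosolic RNA. Fraction labels were checked with MALAT1, a nuclear lncRNA, at 2352 FPKM in knockdown nuclear against 106 FPKM in knockdown cytosolic RNA, and 1984 FPKM in control nuclear against 141 FPKM in control cytosolic RNA. GAPDH, a cytosolic mRNA, stood at 407 FPKM in knockdown nuclear against 1942 FPKM in knockdown cytosolic RNA, and 399 FPKM in control nuclear against 2168 FPKM in control cytosolic RNA. The 10 erythroid and K562 markers, among them HBG1, GATA1, KLF1 and TFRC, lay between 6.14 and 1560.1 FPKM. Of markers of other cell types, MS4A1 was listed at 0 in every library and ALB, COL1A1, GFAP and CD3E stayed at or below 2.12 FPKM. The epithelial markers EPCAM (10.7 to 23.7 FPKM) and KRT18 (83.1 to 250.1 FPKM) were present in all 6 libraries. Depth was uneven, with 1 FPKM over 1 kilobase standing for about 13.4 fragments in the control cytosolic and 39.1 fragments in the knockdown nuclear library. The members rested on an estimated 256 to 3335 fragments each.

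The members fall into 3 roles, and their positions are given as in the deposited table (hg19). The SF3a complex, which bridges the U2 snRNA core and SF3b, is made of SF3A1 (chromosome 22, 30727976 to 30752936), SF3A2 (chromosome 19, 2236519 to 2248678) and SF3A3 (chromosome 1, 38422646 to 38456593). The SF3b complex, which holds the branch point adenosine, is represented by SF3B1 (chromosome 2, 198254507 to 198299815), its large scaffold of HEAT repeats, SF3B2 (chromosome 11, 65818199 to 65836779), SF3B3 (chromosome 16, 70557690 to 70608820), SF3B4 (chromosome 1, 149895208 to 149900236), which has RNA recognition motifs, and the small subunit SF3B5 (chromosome 6, 144416017 to 144416754). SNRPA1 (chromosome 15, 101821714 to 101835487) and SNRPB2 (chromosome 20, 16710605 to 16722421) encode the proteins U2-A′ and U2-B″. By the longest coding transcript in GENCODE release 29, SF3B5 has 1 exon, SF3B4 6, SNRPB2 7, SF3A2 and SNRPA1 9 each, SF3A1 16, SF3A3 17, SF3B2 21, SF3B1 25 and SF3B3 26.

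Some loci could share fragments with other loci. The SF3B2 locus also carries the name snoU13. The SF3A2 locus overlaps that of PLEKHJ1 by 1185 bases, and PLEKHJ1 had a mean of 32.0 FPKM. The other loci that overlap members had means of 0.358 FPKM or less, and the pseudogenes SF3A3P1 and SF3A3P2 were listed at 0. Whether the counting used the strand is not given, so the part of PLEKHJ1 in the SF3A2 values was not tested.

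RefSeq promoters were found for 9 of the members, and SF3B3 had no entry. Those of the 4 members at the ends of the ranges below are shown, because SF3A1 had the highest knockdown ratio in whole-cell RNA, SF3A3 the highest in nuclear and cytosolic RNA, SF3B1 the only ratio below 0 and the highest nuclear share, and SF3B5 the lowest nuclear share. Each line is the 250 bases before the annotated start on GRCh38.p14, 5′ to 3′ on the gene's strand, with the ETS core motif CCGGAAG (either strand) in capitals.
SF3A1 (chr22:30356895-30357144, minus strand): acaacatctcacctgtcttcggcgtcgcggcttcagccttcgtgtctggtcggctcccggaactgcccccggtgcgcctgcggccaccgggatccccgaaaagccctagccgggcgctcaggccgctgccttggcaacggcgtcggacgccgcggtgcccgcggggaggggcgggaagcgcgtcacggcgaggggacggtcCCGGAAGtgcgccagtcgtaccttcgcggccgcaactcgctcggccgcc
SF3A3 (chr1:37990023-37990272, minus strand): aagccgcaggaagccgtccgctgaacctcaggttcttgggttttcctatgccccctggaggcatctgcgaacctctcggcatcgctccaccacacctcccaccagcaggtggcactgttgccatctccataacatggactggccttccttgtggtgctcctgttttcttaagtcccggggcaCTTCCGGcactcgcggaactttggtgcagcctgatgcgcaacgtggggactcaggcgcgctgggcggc
SF3B1 (chr2:197435029-197435278, minus strand): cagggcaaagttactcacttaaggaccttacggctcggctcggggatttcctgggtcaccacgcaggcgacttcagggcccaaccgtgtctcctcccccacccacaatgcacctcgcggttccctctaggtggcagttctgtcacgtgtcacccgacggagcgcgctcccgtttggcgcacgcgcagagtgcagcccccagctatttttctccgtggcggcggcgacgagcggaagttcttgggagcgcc
SF3B5 (chr6:144095574-144095823, minus strand): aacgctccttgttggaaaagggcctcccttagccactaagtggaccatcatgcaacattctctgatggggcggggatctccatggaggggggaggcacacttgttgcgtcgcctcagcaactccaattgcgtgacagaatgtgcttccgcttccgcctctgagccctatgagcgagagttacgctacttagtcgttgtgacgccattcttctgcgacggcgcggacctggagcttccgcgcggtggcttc

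The ETS core was found in 7 of the 9 promoters, those of SF3A1, SF3A2, SF3A3, SF3B2, SF3B4, SNRPA1 and SNRPB2, against 8.82% of all 27305 RefSeq promoters and 17.1% of 8544 promoters of the protein-coding loci analysed. SF3B1 and SF3B5 held no CCGGAAG in this window, and shorter or variant forms of the ETS motif were not searched. The match lay 49 bases before the start of SF3A1 and 68 bases before that of SF3A3, counted from its first base. The GC box GGGCGG was in 5 of 9 promoters (68.6% of those of the protein-coding loci analysed), the NRF1 motif in 2 of 9 (11.2%), CCAAT in 2 of 9 (35.7%), the E-box CACGTG in 1 of 9 (9.22%) and TATAAA in 0 of 9 (4.83%). All motifs were searched on both strands. No ETS match shared a base with a match of these other motifs in the 9 promoters, and a match is only a description of these letters.

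The U2 snRNP protein genes were well expressed. Their median was 40.5 FPKM in knockdown and 34.1 FPKM in control whole-cell RNA, against medians of 9.40 and 8.92 FPKM over protein-coding loci in the same knockdown and control libraries. In cytosolic RNA the members had a median of 78.3 FPKM after knockdown and 62.9 FPKM in the control. Levels of the members spanned 4.93-fold in knockdown and 6.75-fold in control whole-cell RNA.

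SF3B3, an SF3b scaffold protein, had the highest level in whole-cell and nuclear RNA, with 58.3 FPKM in knockdown and 57.1 FPKM in control whole-cell RNA, 80.5 FPKM in knockdown and 78.2 FPKM in control nuclear RNA, and 109.9 FPKM in knockdown and 90.9 FPKM in control cytosolic RNA. In knockdown nuclear RNA its step over SF3A3 was inside counting error. SF3B5 was highest in cytosolic RNA, though after knockdown its step over SF3B3 was inside counting error, with 118 FPKM in knockdown and 113 FPKM in control cytosolic RNA, beside 43.5 FPKM in knockdown and 38.3 FPKM in control nuclear RNA and 39.6 FPKM in knockdown and 32.5 FPKM in control whole-cell RNA. SNRPB2 was last in all 6 libraries and SF3B4 next to last, though in control nuclear RNA the step between them was inside counting error. SNRPB2 had 11.8 FPKM in knockdown and 8.45 FPKM in control whole-cell RNA, 13.7 FPKM in knockdown and 13.3 FPKM in control nuclear RNA, and 21.6 FPKM in knockdown and 17.7 FPKM in control cytosolic RNA. Its partner SNRPA1 lay at 2.39 times the SNRPB2 level in knockdown and 3.15 times in control whole-cell RNA.

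In the middle of the order neighbouring genes were close. Only neighbours were compared, so genes at the ends of a run of them can differ by more than counting error. In whole-cell RNA the neighbours from SF3B2 through SF3A2, SF3B1 and SF3A3 to SF3B5 (45.5 to 39.6 FPKM) after knockdown did not differ beyond their 95% counting error, and in the control the same held from SF3B1 through SF3A2, SF3B2 and SF3A3 to SF3B5 (44.9 to 32.5 FPKM). Of 9 neighbouring pairs, 4 differed beyond counting error in knockdown and 5 in control whole-cell RNA. In nuclear RNA 6 differed in the knockdown and 5 in the control library, and in cytosolic RNA 6 in the knockdown and 7 in the control library. SF3B1 was among the 4 highest members in whole-cell and nuclear RNA of both conditions but rank 8 in cytosolic RNA of both.

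**Figure D1:**
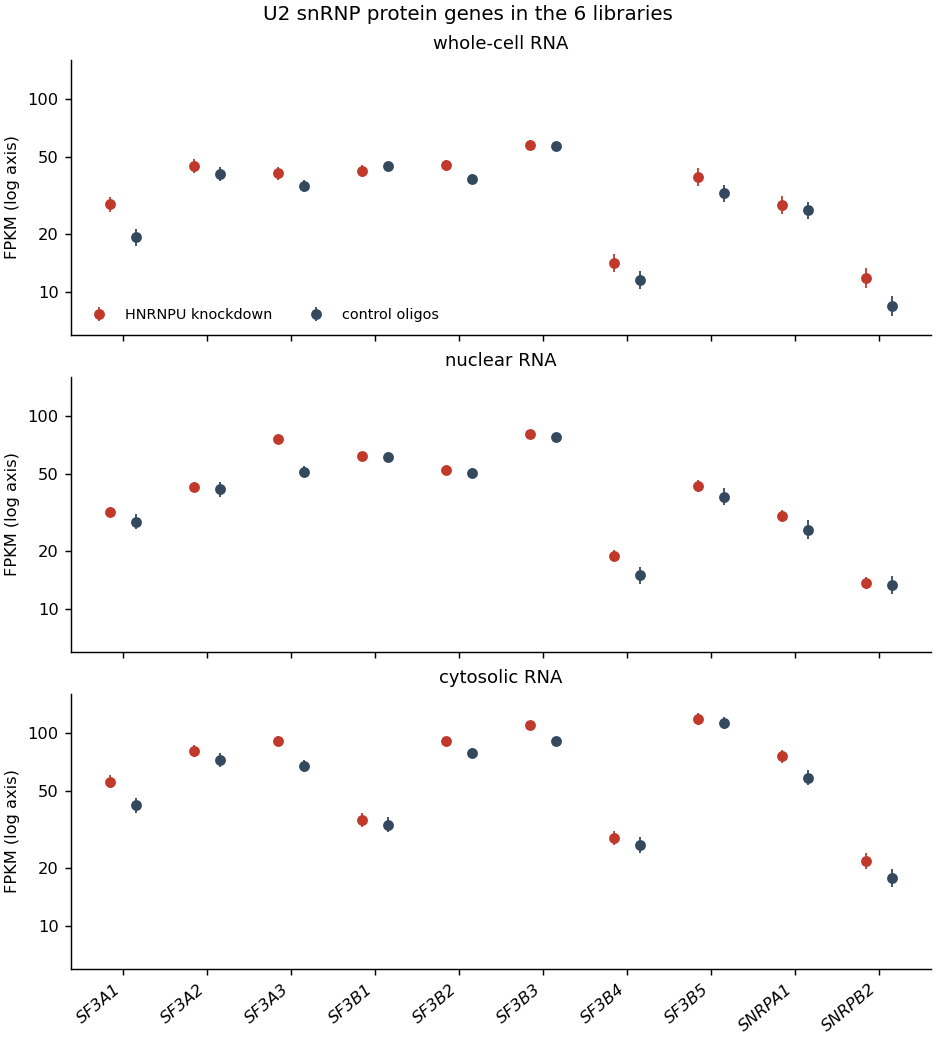
FPKM of the 10 U2 snRNP protein genes (log axis) in whole-cell, nuclear and cytosolic RNA, with knockdown left and control right for each gene, 1 library per point and bars for the estimated 95% counting interval. SNRPB2 and SF3B4 are lowest in every panel, and SF3B1 lies high in nuclear RNA and low in cytosolic RNA.

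Whole-cell FPKM was below both fractions for 8 of 10 members after knockdown and 8 of 10 in the control, against 54.9% of protein-coding loci after knockdown and 57.2% in the control. SF3B1 and SF3A2 were the exceptions after knockdown, and SF3B1 and SNRPA1 in the control. FPKM is scaled within each library, so levels of different preparations are not on a common scale.

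After knockdown the U2 snRNP protein genes were slightly higher in these libraries, and none was 1.5-fold apart from its control. In whole-cell RNA 9 of 10 members had a log2 ratio of knockdown to control above 0, where 60.7% of all loci and 63.1% of protein-coding loci did. In nuclear RNA 10 of 10 were above 0 (54% of all loci and 55.4% of protein-coding loci), and in cytosolic RNA 10 of 10 (54.3% and 56.5%). Above 0 in all 3 preparations were 9 of the 10 members, against 26.9% of protein-coding loci. The 3 preparations may share cells, so they are not independent, and genes of a pathway are not either. In bulk RNA a different number of cells of a kind and a different amount of RNA per cell cannot be told apart.

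The sizes were small. The median log2 ratio of the members was 0.23 in whole-cell RNA, 0.10 in nuclear RNA and 0.23 in cytosolic RNA, against 0.06, 0.03 and 0.03 over all loci and 0.07, 0.04 and 0.04 over protein-coding loci. At least 1.5-fold higher were 0 of 10 members in whole-cell RNA (4.76% of all loci), 0 of 10 in nuclear RNA (3.86%) and 0 of 10 in cytosolic RNA (6.41%), and at least 1.5-fold lower were 0 of 10 in each (3.86%, 4.74% and 5.9% of all loci). A 2-fold difference either way was passed by 2.66%, 2.55% and 5.25% of all loci in whole-cell, nuclear and cytosolic RNA and by no member. Among protein-coding loci averaging 5 FPKM or more, 2.75%, 2.75% and 2.92% passed 1.5-fold either way, so a count of 0 in 10 members is near the background. Beyond the 95% counting interval and above 0 were 6 members in whole-cell RNA (23.7% of protein-coding loci), 5 in nuclear RNA (24.6%) and 7 in cytosolic RNA (20%). No member was below 0 beyond it in any preparation (8.78%, 17.1% and 13.3% of protein-coding loci). This interval covers the counting of fragments only, and it would be narrower with transcripts longer than the mean lengths used. It narrows as the level rises, and the members' median levels were above those of protein-coding loci. The shares in brackets are therefore not matched for level, and no level-matched share was computed. These counts were made at the deposited scaling only and can differ with another scaling.

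How many nuclear ratios lay above 0 depends on how the libraries are scaled. With equal totals without mitochondrial and small RNA, 5 of 10 members were above 0 in nuclear RNA, with quantile normalization 7, and 8 when libraries were set to equal protein-coding medians. In whole-cell RNA 8 of 10 were above 0 under each of these scalings, with SF3B3 and SF3B1 below 0. In cytosolic RNA all 10 were above 0 under each of them and with both other pseudocounts.

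Among the SF3a genes, SF3A1 had the highest whole-cell ratio of the members. It had 28.6 FPKM in knockdown and 19.2 FPKM in control whole-cell RNA, a log2 ratio of 0.57 (95% counting interval 0.37 to 0.77), and 3.60% of protein-coding loci had a higher one. In nuclear RNA SF3A1 had 31.8 FPKM after knockdown and 28.4 FPKM in the control (0.16), and in cytosolic RNA 56.1 FPKM after knockdown and 42.1 FPKM in the control (0.41). Its knockdown library was the higher one in each preparation. SF3A3 differed most in nuclear RNA, with 76.5 FPKM after knockdown and 51.5 FPKM in the control, a log2 ratio of 0.57 (0.46 to 0.68) that 2.37% of protein-coding loci exceeded. In cytosolic RNA SF3A3 had 91.4 FPKM after knockdown and 67.3 FPKM in the control (0.44), and in whole-cell RNA 41.4 FPKM after knockdown and 35.6 FPKM in the control (0.22). SF3A3 was thus the member highest above its control in both fractions, though not in whole-cell RNA. SF3A2 had 45.3 FPKM after knockdown and 41.0 FPKM in the control in whole-cell RNA (0.14), 42.8 and 41.7 FPKM in knockdown and control nuclear RNA (0.04), and 80.8 and 72.5 FPKM in knockdown and control cytosolic RNA (0.16).

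Ratios between subunits within a library do not depend on a scaling that multiplies the whole library by 1 factor, though quantile normalization can move them. For 8 pairs chosen with the members' values known, they were compared between conditions in each preparation. The level of SF3A1 per SF3A3 was 0.689 in knockdown and 0.541 in control whole-cell RNA (log2 difference 0.35, counting error 0.13), but 0.415 in knockdown and 0.550 in control nuclear RNA (-0.41, counting error 0.10). In cytosolic RNA it was 0.613 after knockdown and 0.626 in the control (-0.03, inside its counting error). The level of SF3A2 per SF3A3 was 0.559 in knockdown and 0.810 in control nuclear RNA (-0.53), and 0.883 in knockdown and 1.08 in control cytosolic RNA (-0.29). The level of SF3A1 per SF3B1 was 0.672 in knockdown and 0.428 in control whole-cell RNA (0.65), the largest difference of the 24 compared. For SF3A1 per SF3A3 the sign differed between whole-cell and nuclear RNA. SF3B5 per SF3B3 also differed in sign, with 0.25 in whole-cell and -0.21 in cytosolic RNA, both beyond counting error. SF3A2 per SF3A3 in whole-cell RNA (-0.08) and SF3A1 per SF3B1 in nuclear RNA (0.14) were inside it. SF3B2 per SF3B1 in whole-cell RNA (0.32) and SF3B4 per SF3B2 in nuclear RNA (0.30) were beyond it. Both of these pairs were inside it in their other preparations, as was SF3B3 per SF3B1 in every preparation.

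In the SF3b complex SF3B1, the subunit that contacts the branch point, lay inside the estimated counting error of its control in every preparation. It had 42.5 FPKM in knockdown and 44.9 FPKM in control whole-cell RNA, 62.5 FPKM in knockdown and 61.5 FPKM in control nuclear RNA, and 35.4 FPKM in knockdown and 33.4 FPKM in control cytosolic RNA. Its log2 ratios in that order were -0.08, 0.02 and 0.08. Their intervals used a mean length of 1309 bases over 12 annotated transcripts, 5 of them with a retained intron. A longer length would give narrower intervals. The SF3B3 log2 ratio was 0.03 from whole cells, 0.04 from nuclei and 0.27 from cytosol, and the last lay beyond its counting error (0.17 to 0.38).

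SF3B2, which takes part in contacts of SF3b with the RNA, had 45.5 FPKM in knockdown and 38.7 FPKM in control whole-cell RNA (log2 ratio 0.24), 52.3 FPKM in knockdown and 50.8 FPKM in control nuclear RNA (0.04), and 90.9 FPKM in knockdown and 79.3 FPKM in control cytosolic RNA (0.20). SF3B4 had 14.2 FPKM in knockdown and 11.5 FPKM in control whole-cell RNA (0.30), 18.9 FPKM in knockdown and 14.9 FPKM in control nuclear RNA (0.34), and 28.6 FPKM in knockdown and 26.2 FPKM in control cytosolic RNA (0.13). Its whole-cell and nuclear ratios lay beyond counting error and its cytosolic ratio did not. SF3B5 had 0.28 from whole cells, 0.18 from nuclei and 0.06 from cytosol, where likewise the cytosolic value alone was inside its counting error.

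Of the U2 snRNA-binding pair, SNRPB2 had a log2 ratio of 0.48 in whole-cell RNA (0.24 to 0.72), 0.04 in nuclear RNA and 0.29 in cytosolic RNA. SNRPA1 had 28.2 FPKM in knockdown and 26.6 FPKM in control whole-cell RNA (0.09), 30.3 FPKM in knockdown and 25.8 FPKM in control nuclear RNA (0.23), and 75.9 FPKM in knockdown and 58.5 FPKM in control cytosolic RNA (0.37). SNRPB2 was furthest from its control in whole-cell RNA and SNRPA1 in cytosolic RNA. Their ratio within whole-cell RNA differed by -0.40 on the log2 scale between knockdown and control (counting error 0.17), and in both fractions it lay inside its counting error.

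**Figure D2:**
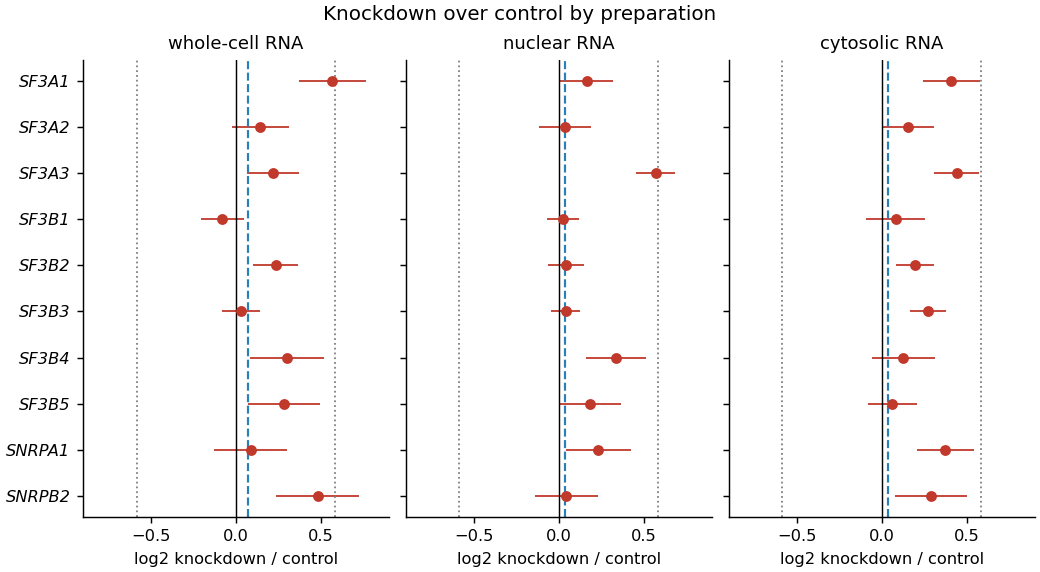
Log2 ratio of knockdown to control FPKM per gene in each preparation, with bars for the estimated 95% counting interval, a dashed line at the median of protein-coding loci and dotted lines at 1.5-fold. All points lie inside the dotted lines, SF3A1 and SNRPB2 are highest in whole-cell RNA and SF3A3 in nuclear RNA.

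The ratio of nuclear to cytosolic FPKM spread wider between members than between conditions of 1 member. As a log2 value it had a median of -0.73 over the members after knockdown and -0.61 in the control, against -0.61 after knockdown and -0.61 in the control over protein-coding loci. Above 0 was 1 of 10 members in each condition, where 24.8% of protein-coding loci and 32.9% of all loci were above 0 after knockdown, and 26.7% and 34.8% in the control. The zero point moves with the scaling of the libraries, and 5 members after knockdown and 8 in the control were above 0 with equal totals without mitochondrial and small RNA. Ratios are therefore given below relative to the median of protein-coding loci in the same pair of libraries. Above that median were 4 of 10 members after knockdown and 5 of 10 in the control (50% of protein-coding loci by definition), and with quantile normalization 8 of 10 after knockdown and 7 of 10 in the control.

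SF3B1 mRNA stood at the nuclear end. Its ratio of nuclear to cytosolic FPKM was 1.77 after knockdown and 1.84 in the control, which is 1.42 and 1.49 log2 units above the protein-coding median in knockdown and control RNA. Of protein-coding loci 7.59% had a higher ratio after knockdown and 8.16% in the control. SF3A3 followed after knockdown, 0.35 above the median after knockdown and 0.23 in the control, and SF3B3 in the control, 0.16 above the median after knockdown and 0.39 in the control. With quantile normalization SF3A3 was 0.84 above the median after knockdown and 0.71 in the control, and SF3B3 0.67 after knockdown and 0.90 in the control. These 3 members have 17 to 26 exons.

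SF3B5, whose gene has 1 exon, stood at the cytosolic end. Its ratio of nuclear to cytosolic FPKM was 0.368 after knockdown and 0.338 in the control, or -0.83 after knockdown and -0.95 in the control on the log2 scale relative to the protein-coding median. SNRPA1 came next, with 0.400 after knockdown and 0.440 in the control, or -0.71 after knockdown and -0.57 in the control relative to the median. Of protein-coding loci 85.0% after knockdown and 87.2% in the control had a higher ratio than SF3B5. With quantile normalization SF3B5 was at -0.37 after knockdown and -0.45 in the control, and SNRPA1 at -0.31 after knockdown and -0.22 in the control. The remaining 5 members lay between -0.31 and 0.20. With quantile normalization SF3A1, SF3A2, SF3B2 and SNRPB2 after knockdown and SF3A2 and SF3B2 in the control lay on the other side of the median. SF3B4 with 6 exons was at 0.01 after knockdown and -0.20 in the control, and SF3B2 with 21 exons at -0.19 after knockdown and -0.03 in the control.

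**Figure D3:**
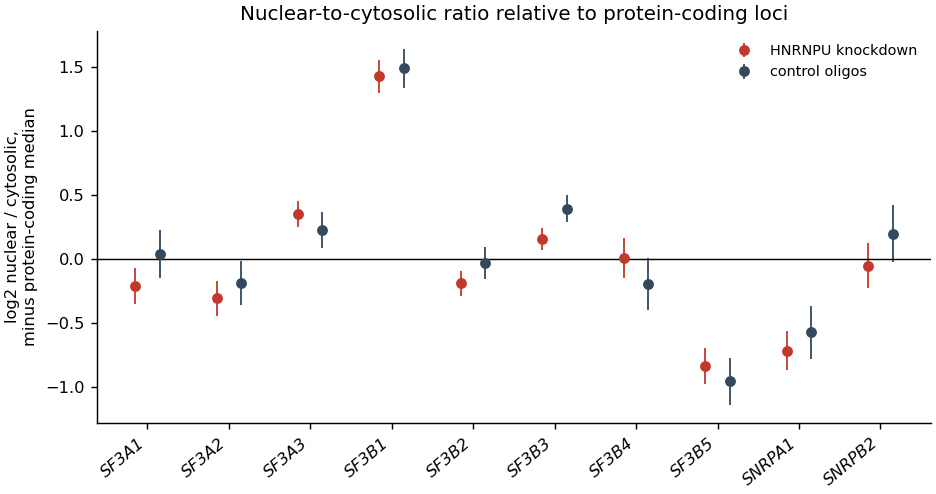
Log2 ratio of nuclear to cytosolic FPKM per gene minus the median of protein-coding loci, with knockdown left and control right and bars for the estimated 95% counting interval. SF3B1 is far above 0 in both conditions, and SF3B5 and SNRPA1 are below 0 in both.

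The localization shift, the nuclear-to-cytosolic log2 ratio after knockdown minus that in the control, was small. Its median was -0.13 over the members, against 0.000539 over all loci and 0.00262 over protein-coding loci. Above 0 were 3 of 10 members, SF3A3 (0.13), SF3B4 (0.21) and SF3B5 (0.12), where 50% of all loci and 50.4% of protein-coding loci were. The shifts of SF3A1 (-0.25, 95% counting interval -0.48 to -0.02) and SF3B3 (-0.23, -0.37 to -0.10) lay below 0 beyond counting error, as did 13.8% of protein-coding loci. No member lay above 0 beyond it, against 14.9%. The 95% counting intervals of SNRPB2 (-0.24), SF3B2 (-0.15), SNRPA1 (-0.14), SF3A2 (-0.12) and SF3B1 (-0.06) held 0. No member was shifted at least 1.5-fold to the nucleus (7.59% of all loci) or to the cytosol (9.2%).

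Other proteins of the splicing apparatus put these values in context, from lists chosen with earlier results of these data known. No test of a list was made, so the values below do not show whether anything is particular to a list. Among 18 other proteins associated with U2 snRNP the median log2 ratio of knockdown to control was 0.11 from whole cells, 0.10 from nuclei and 0.08 from cytosol, and 0 of 18 were 1.5-fold apart in any preparation. DNAJC8 (merged with AL353354.1) had 0.46 in whole-cell RNA, PUF60, which helps U2AF at the polypyrimidine tract, 0.41, SUGP1, a G-patch protein that binds SF3B1, 0.39, and SF3B6, the SF3b subunit that touches the branch point region, 0.31. PUF60 had -0.16 and -0.05 in nuclear and cytosolic RNA, so its sign differed between preparations. PHF5A, the remaining SF3b subunit, named for completeness after its values were seen, stood at 0.09 from whole cells, 0.43 from nuclei and 0.00260 from cytosol.

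The Sm ring proteins, which bind U2 snRNA as they do other spliceosomal snRNAs, had medians of 0.13 from whole cells, 0.08 from nuclei and 0.17 from cytosol over 7 genes, with 0 of 7 past 1.5-fold, and SNRPN was listed at 0. SNRPE had 0.23 and SNRPD1 0.22 in whole-cell RNA, SNRPF 0.17 and SNRPB (in a merged locus with ZNF343) -0.15. SNRPB was below 0 in nuclear (-0.23) and cytosolic RNA (-0.20) too. The 8 U1 snRNP genes had medians of 0.10, 0.03 and 0.03 in whole-cell, nuclear and cytosolic RNA. LUC7L3, a U1-associated protein with an arginine-serine rich tail, was the 1 gene of these lists past 1.5-fold between knockdown and control, with 29.5 FPKM in knockdown and 16.4 FPKM in control cytosolic RNA (0.85 as log2), while its nuclear ratio was 0.13 and its whole-cell ratio 0.14. LUC7L2 had 0.27 and LUC7L 0.22 in whole-cell RNA.

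The 16 genes of the tri-snRNP had medians of 0.06, 0.03 and 0.10 in whole-cell, nuclear and cytosolic RNA. They were led in whole-cell RNA by PRPF31 (0.36), USP39 (0.24), PRPF4 (0.19) and SNU13 (0.19). The 6 LSm genes found had 0.03, -0.09 and 0.05, with LSM5 at 0.36 in whole-cell RNA, LSM7 at 0.04, LSM6 at 0.03 and LSM3 at 0.02. The 8 genes of the minor spliceosome, which removes a rare class of introns, had 0.12, 0.06 and 0.14, with ZCRB1 at 0.44, ZMAT5 at 0.33, RNPC3 at -0.18 and SNRNP35 at -0.17 in whole-cell RNA. No gene of these 3 lists passed 1.5-fold in any preparation.

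Genes for the assembly and import of snRNPs had the same whole-cell median as the U2 snRNP protein genes. Over 22 genes the medians were 0.23 from whole cells, 0.19 from nuclei and 0.15 from cytosol, with 14, 17 and 13 of 22 above the protein-coding median in that order, and 0 of 22 past 1.5-fold. GEMIN2, which holds Sm proteins during assembly on the SMN complex, had 6.50 FPKM in knockdown and 4.35 FPKM in control whole-cell RNA (0.57), 6.21 FPKM in knockdown and 4.26 FPKM in control nuclear RNA (0.53), and 10.4 FPKM in knockdown and 12.6 FPKM in control cytosolic RNA (-0.27). PHAX, the adaptor for snRNA export, had 0.37, SMN2 0.35 and STRAP 0.34 in whole-cell RNA. SMN2 has a near-identical copy, SMN1, so its value is uncertain.

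**Figure D4:**
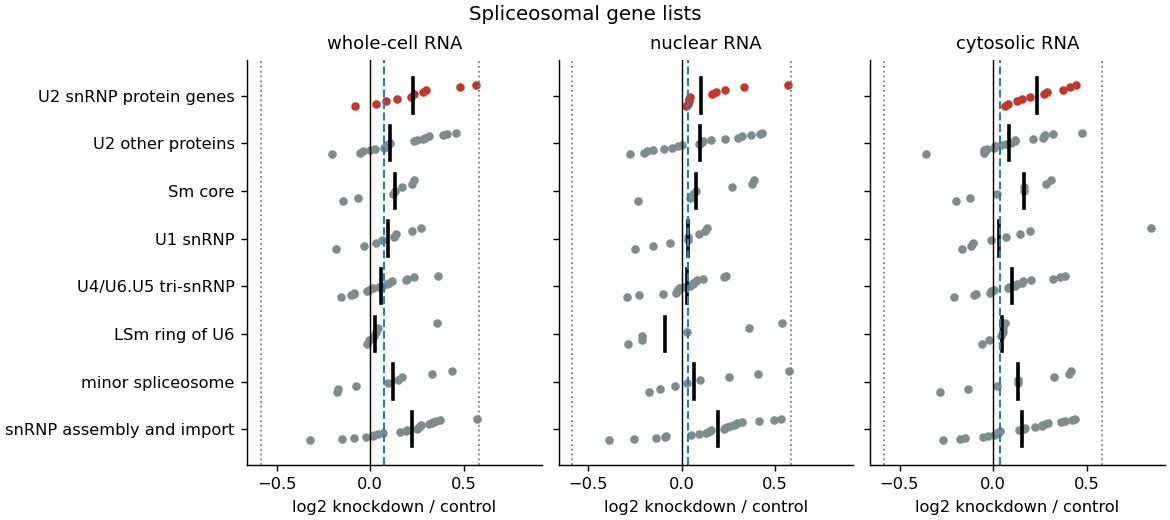
Log2 ratio of knockdown to control for each gene of the spliceosomal lists in whole-cell, nuclear and cytosolic RNA, with black bars for list medians, a dashed line at the median of protein-coding loci and dotted lines at 1.5-fold. The U2 snRNP protein genes (top) have medians of 0.23, 0.10 and 0.23, and LUC7L3 in cytosolic RNA is the 1 point beyond the dotted lines.

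Of the U2 snRNA itself, RNU2-2P was the 1 listed gene found, in a locus merged with the protein-coding gene WDR74 on chromosome 11. This locus had 1089 FPKM in knockdown and 753 FPKM in control whole-cell RNA, 2826 FPKM in knockdown and 2272 FPKM in control nuclear RNA, and 978 FPKM in knockdown and 1281 FPKM in control cytosolic RNA. It was higher after knockdown in whole-cell and nuclear RNA and lower in cytosolic RNA, a shift of 0.70. Fragments of the snRNA and of WDR74 cannot be told apart in the merged value, and FPKM of an RNA shorter than the usual fragment is uncertain. RNU2-1 is not analysed here.

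The protein-coding loci whose pattern over the 6 libraries was most like the mean pattern of the members were EMC4, the merged PA2G4 and ERBB3 locus, PRMT5, NIT1 and RBM42, at Euclidean distances of 0.09 to 0.11 log2 units among 7977 candidates. SF3B2 was the member nearest to the mean pattern, at 0.15, with 28 candidates nearer, and SF3B1 the farthest, at 1.61. EMC4 had 14.9 FPKM in knockdown and 12.7 FPKM in control whole-cell RNA, 18.3 FPKM in knockdown and 17.0 FPKM in control nuclear RNA, and 27.3 FPKM in knockdown and 23.9 FPKM in control cytosolic RNA.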

How the data were processed

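RNA of 6 K562 libraries, 1 per group, was measured by sequencing after ribosomal RNA depletion with a strand-specific protocol, per the labels. The authors deposited FPKM per locus, a unit inferred from the values and from Cuffdiff 2.2.1, which the submitters' processing notes list beside TopHat2 2.0.13, FastQC and CASAVA without roles. They list the builds hg19 and mm9, and the coordinates are of hg19. How libraries were scaled, which annotation was used and whether strand was counted are not stated.

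Ratios are differences of log2(FPKM + 0.1), which understates the change of low loci, over loci averaging 1 FPKM or more. Gene types and lengths came from GENCODE release 29 by symbol, with RefSeq synonyms for older symbols. Depth was estimated from the spacing of low FPKM at loci with 1 exon, whose lengths were shortened by 220 bases. Fragment numbers and 95% counting intervals (1.96 counting errors) were derived from that depth and each gene's mean transcript length. That mean was taken over all annotated transcripts, retained-intron ones included, so it can be shorter than the main mRNA. In that case fragments are underestimated and intervals too wide. Both cover counting only and rest on estimated lengths. With 1 library per group no test was run, and a fold of 1.5 was the size rule.

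Members and lists were chosen with earlier results of these data known. Up to 4 genes per list are named, those with the largest absolute log2 ratios of knockdown to control in whole-cell RNA. The 5 loci nearest to the mean pattern (mean of at least 5 FPKM) are named too. Of the genes these rules and the marker list name, 2 are not reported here. Lists were the members, other U2 proteins, Sm ring, U1 snRNP, tri-snRNP, LSm ring, minor spliceosome, snRNP assembly and import, and U2 snRNA. Alternatives were pseudocounts of 1 and 0.01, 3 other scalings, a fold of 2, other minimum means and single-name loci. The software was Python 3.11.15 with pandas 2.3.3, numpy 2.4.6, matplotlib 3.10.9 and scipy 1.17.1. On simulated libraries of 10287 loci with 100 loci changed 2-fold, 99%, 100% and 98% of these passed 1.5-fold in whole-cell, nuclear and cytosolic RNA. Of unchanged loci 0.98%, 0.59% and 1.47% passed it either way in the same order. The simulation held counting noise only, so it does not show how pairs of single libraries behave. Loci changed 1.5-fold, a size no member reached, were also simulated and are not summarized here.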

Additional observations from a re-analysis of the deposited data

Results flagged for a closer look

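Among the members and the U2 snRNA locus, the ratio of knockdown to control had opposite signs in different preparations at SF3B1 and at the merged RNU2-2P and WDR74 locus. Genes of the other lists also had opposite signs, among them GEMIN2 and PUF60, given above, and SNRPE (0.23 in whole-cell and -0.12 in cytosolic RNA). With 1 library per group these differences were not tested. For SF3B1 the log2 ratio was -0.08 in whole-cell RNA, against 0.02 in nuclear RNA (difference -0.10) and 0.08 in cytosolic RNA (difference -0.16). Each of these ratios lay inside its estimated counting error, which rests on the mean transcript length. For the RNU2-2P locus the log2 ratio was 0.53 in whole-cell and 0.31 in nuclear RNA, against -0.39 in cytosolic RNA, differences of 0.92 and 0.70.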

How the results depend on the processing

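No member was 1.5-fold apart with any of the 3 other scalings. A fold of 2, a pseudocount of 1 and single-name loci also gave 0, but could not have given more than the main count of 0. The members nearest to the rule were SF3A3 in nuclear RNA (1.49-fold) and SF3A1 in whole-cell RNA (1.48-fold). The medians over the members of the knockdown-to-control ratios and of the localization shift kept their sign under every scaling. The median nuclear-to-cytosolic log2 ratio, -0.73 after knockdown and -0.61 in the control, was -0.20 after knockdown and -0.071 in the control with libraries scaled to the protein-coding median. With equal totals without mitochondrial and small RNA it was 0.026 after knockdown and 0.24 in the control, and with quantile normalization 0.049 after knockdown and 0.20 in the control. By construction, scaling moves the zero point of that ratio. Relative to the protein-coding median, quantile normalization turned SF3A1 to 0.15, SF3A2 to 0.13, SF3B2 to 0.32 and SNRPB2 to 0.08 after knockdown. In the control it turned SF3A2 to 0.27 and SF3B2 to 0.45. The cause was not tested. The HNRNPU level left in whole-cell RNA, 43.0%, was 40.8% with the protein-coding median, 41.6% with equal totals and 39.0% with quantile normalization, alternatives chosen after seeing the data. The share of all loci past 1.5-fold in whole-cell RNA, 8.62%, was 13.1% with no minimum and 3.09% at a mean of at least 5 FPKM. No paired analysis was possible because each group holds 1 library, so that no replicate number pairs samples. A fit with the preparation as a block, which would take the 3 preparations as replicates, was not run. Depth limits ratios of members to counting errors of 0.04 to 0.12 for knockdown over control, and a missing replicate limits them further.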

Other observations

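Among the other splicing lists, a localization shift of at least 1.5-fold was seen for LUC7L3 (-0.71), GEMIN6 (-0.70), DDX23 (-0.62), GEMIN2 (0.80) and the merged RNU2-2P locus (0.70), where 7.59% of all loci were shifted that far to the nucleus and 9.2% to the cytosol. The nuclear-to-cytosolic log2 ratio was 1.06 after knockdown and 1.77 in the control for LUC7L3, and 0.22 after knockdown and 0.83 in the control for DDX23.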
